A study of Homo sapiens with 2 samples.

Results

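The 4 HOX gene clusters of the human genome were described by the contacts that H3K27ac HiChIP recorded at them in HCT116 cells, an established human colorectal carcinoma line. A loop was a pair of different anchors on 1 chromosome with midpoints up to 2 Mb apart, and it was counted for a cluster when at least 1 anchor overlapped the cluster interval. In hg19 the intervals were chr7:27100000-27300000 for HOXA, chr17:46600000-46820000 for HOXB, chr12:54320000-54460000 for HOXC and chr2:176940000-177060000 for HOXD. By this rule 1191 of 1017526 loops of replicate 1 (0.117%) and 1306 of 1156897 loops of replicate 2 (0.113%) belonged to the clusters, and together the intervals held 90 anchors.

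HiChIP ligates DNA fragments that lie close together in the nucleus and then enriches the ligated chromatin with an antibody. The antibody here was against H3K27ac, a mark of active promoters and enhancers, so a count reports a contact in which at least 1 partner was pulled down with the mark. The data comprised 2 replicates of HCT116 cells, for which no treatment is named, and no other condition, and nothing states whether the replicates came from separate cultures, so their spread may be technical. Counts summed to 1885481 and 2131466, of which 1187130 and 1369538 joined different anchors within 2 Mb.

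HOX genes encode homeodomain transcription factors that give cells their position along the body axis, and their order on the chromosome follows the order in which they are used from anterior to posterior. They are numbered by paralog group, from group 1 at the anterior end to group 13 at the posterior end. In embryos, genes at the 2 ends of a cluster contact different regulatory landscapes on the 2 sides of it, and in differentiated cells silent HOX genes carry polycomb marks while used ones carry H3K27ac. In the following, the flank next to the lowest paralog groups is called the anterior flank and the flank next to group 13 the posterior flank, whatever the direction of the cluster on its chromosome.

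Several microRNAs are encoded between the HOX genes, and each of those below had a hairpin that overlapped a HiChIP anchor. Their mature sequences, from RefSeq (GRCh38.p14), are shown because they mark anchors at opposite ends of the count range, with the seed, bases 2 to 8, in capitals.
hsa-miR-10a-5p: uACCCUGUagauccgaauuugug
hsa-miR-10b-3p: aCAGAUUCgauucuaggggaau
hsa-miR-196a-5p: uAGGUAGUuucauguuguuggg
hsa-miR-196b-5p: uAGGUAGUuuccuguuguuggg
hsa-miR-615-3p: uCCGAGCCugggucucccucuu
The miR-196a-5p and miR-196b-5p sequences share the seed AGGUAGU. The sequence set used held only the 3p arm of miR-10b, so its seed cannot be set against that of miR-10a-5p. The hairpins were placed in hg19 by an exact match of their sequence. MIR196B lay at chr7:27209099-27209182, in the anchor with the highest count of HOXA, and MIR10B at chr2:177015031-177015140, in the highest of HOXD. MIR10A at chr17:46657200-46657309 lay in the second highest anchor of HOXB, and the hairpin of MIR196A2 at chr12:54385522-54385631 overlapped an anchor that shared rank 2 in HOXC. By contrast, MIR196A1 at chr17:46709852-46709921 lay in an anchor of rank 27 of 28 in HOXB. MIR615 at chr12:54427734-54427829 lay in an anchor of rank 7 of 20 in HOXC. These ranks use raw counts of anchors that differ in width. Per kb of anchor, MIR196B ranked 4 of 25, MIR10B 12 of 17, MIR10A 18 of 28 and MIR196A2 12 of 20. MIR196A1 ranked 28 of 28 and MIR615 18 of 20.

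Promoter sequences are shown for the HOX genes with the highest raw promoter counts of their cluster, not corrected for anchor width. They run from 250 bases before to 50 bases after a RefSeq start (GRCh38.p14), and capitals mark GATC, the site of MboI, the enzyme whose cuts bound the anchors.
HOXA9 promoter: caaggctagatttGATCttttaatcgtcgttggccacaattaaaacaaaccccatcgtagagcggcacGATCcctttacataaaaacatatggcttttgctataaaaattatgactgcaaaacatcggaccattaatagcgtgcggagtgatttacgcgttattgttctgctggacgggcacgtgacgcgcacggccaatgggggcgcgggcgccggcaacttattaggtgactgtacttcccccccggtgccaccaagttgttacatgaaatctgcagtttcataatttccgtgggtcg
HOXD4 promoter: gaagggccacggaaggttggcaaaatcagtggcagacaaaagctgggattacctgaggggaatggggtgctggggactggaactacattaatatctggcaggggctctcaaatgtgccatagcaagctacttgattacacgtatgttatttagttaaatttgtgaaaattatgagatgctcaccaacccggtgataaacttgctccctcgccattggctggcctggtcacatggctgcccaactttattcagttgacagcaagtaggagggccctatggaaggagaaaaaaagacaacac
HOXD3 promoter: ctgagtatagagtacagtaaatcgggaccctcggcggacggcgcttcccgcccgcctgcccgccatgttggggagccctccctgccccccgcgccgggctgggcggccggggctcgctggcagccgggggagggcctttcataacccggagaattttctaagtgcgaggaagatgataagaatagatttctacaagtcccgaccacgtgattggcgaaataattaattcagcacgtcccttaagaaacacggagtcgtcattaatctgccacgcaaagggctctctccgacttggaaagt
In hg19 these sequences matched chr7:27205107-27205406 on the minus strand, chr2:177016028-177016327 and chr2:177021785-177022084 on the plus strand. HOXB9 and HOXC10 had the highest raw promoter counts in HOXB and HOXC. The HOXA9 promoter held 2 GATC sites and the other two none, compared with at least 1 in 41.7% of the 35116 promoters of the table. The core motif of CTCF, searched on both strands, was in none of the 3 and in 2.41% of all promoters. CpG dinucleotides numbered 22 in HOXA9, 4 in HOXD4 and 25 in HOXD3.

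HOXB had the most contacts. Its counts per kb of interval were 3.20 in replicate 1, with an exact 95% Poisson range of 2.97 to 3.45, and 3.55 in replicate 2 (3.31 to 3.81). The values were 1.80 (1.58 to 2.04) and 2.16 (1.93 to 2.42) for HOXC, 1.49 (1.33 to 1.67) and 1.68 (1.50 to 1.86) for HOXA, and 1.42 (1.21 to 1.65) and 1.78 (1.55 to 2.04) for HOXD. HOXB was above the others in both replicates without overlap of the intervals, whereas those of HOXA, HOXC and HOXD overlapped, except that HOXC was above HOXA in replicate 2. The means were 3.38 ± 0.25, 1.98 ± 0.26, 1.58 ± 0.13 and 1.60 ± 0.26 for HOXB, HOXC, HOXA and HOXD (SD, n = 2). No molecular identifiers are described for these reads, so this and all intervals below cover counting error only.

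**Figure D1:**
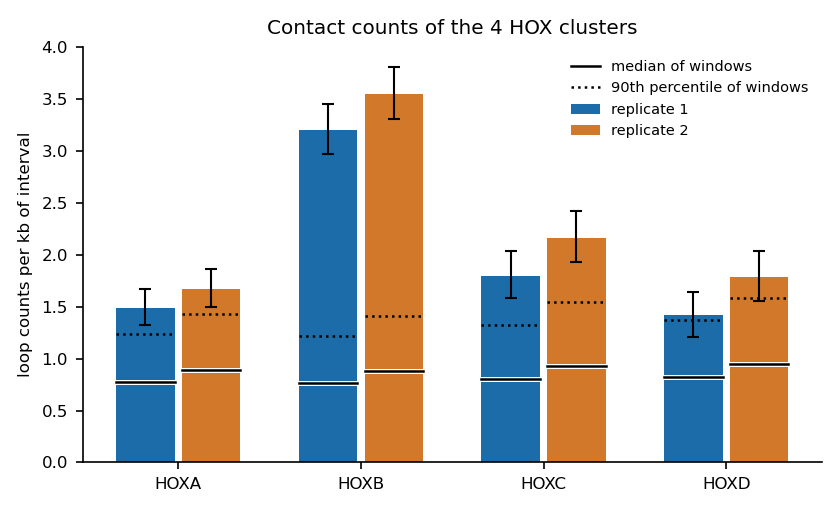
Loop counts per kb of the HOXA, HOXB, HOXC and HOXD intervals in replicate 1 (blue) and replicate 2 (orange), with exact Poisson 95% intervals. Solid lines give the median and dotted lines the 90th percentile of windows of the same length that tile the autosomes. HOXB stands at 3.20 and 3.55, and all bars lie above the dotted lines.

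Compared with autosomal windows of the same length, all 4 clusters lay in the upper part of the range. The median window had 0.764 and 0.882 counts per kb at the length of HOXB, and 0.184% and 0.284% of 10897 windows were above HOXB. For HOXC, 3.44% and 3.06% of 16848 windows were higher, for HOXA 5.11% and 5.74% of 11943, and for HOXD 8.68% and 6.53% of 19555. Anchors were also somewhat denser than usual in the clusters, with 20 in HOXC against a median of 16 and 17 in HOXD against 14. Given the number and spacing of their anchors alone, the counts were 2.91 and 2.79 times the genome-wide average for HOXB, 1.46 and 1.52 times for HOXC, 1.47 and 1.43 times for HOXA and 1.16 and 1.27 times for HOXD.

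Counts of an anchor with itself, which come from short-range ligations, were also compared. Per kb they were 0.505 and 0.605 in HOXB, 0.386 and 0.300 in HOXC, 0.230 and 0.300 in HOXA and 0.133 and 0.125 in HOXD. The median windows had 0.114 to 0.118, so HOXD was near the middle of the windows on this measure, with 38.4% and 41.7% of them higher. The surroundings of HOXB were also rich in counts. Anchors of its anterior and posterior flank had 16.1 and 22.3 counts each with partners outside the cluster in replicate 1 and 18.7 and 25.2 in replicate 2, compared with 9.49 and 10.9 over all anchors of the genome. The part of this local depth in the counts of HOXB was not tested. The counts per kb were not corrected for DNA copy number, and its part in the difference between HOXB and the other clusters was not tested. The posterior flank of HOXC was likewise high (16.7 and 20.7), and the other flanks ranged from 7.78 to 11.4.

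Most of these loops were single counts. Loops with a count of 1 made up 84.8% and 82.5% in HOXB and between 84.1% and 92.9% in the other clusters, compared with 88.7% and 87.9% of all loops. Loops with a count of at least 5 numbered 5 and 13 in HOXB, 0.891% and 2.27% of its loops, where the background over all loops was 0.493% in replicate 1 and 0.596% in replicate 2. HOXA had 1 and 3 such loops, HOXC 1 and 0, and HOXD 0 and 0. In the summed counts HOXB had 31 (3.14%), HOXA 6 (1.17%), HOXC 6 (1.46%) and HOXD 3 (0.932%) against a background of 1.47%, so HOXB was above this share and the other clusters were at or below it. Of the HOXB loops, 26.2% and 25.7% were found in the other replicate, compared with 19.7% and 17.4% of all loops. The shares were 25.1% and 21.0% for HOXC, 17.4% and 13.9% for HOXD and 14.02% and 12.8% for HOXA.

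Along each cluster the counts were unevenly spread over the anchors. In HOXA a single anchor of 11332 bp that holds HOXA9, HOXA10, HOXA10-AS and MIR196B (chr7:27203954-27215285) had 69 and 90 counts and took part in 25.1% of the summed counts of the cluster. The next HOXA anchors had 57 counts (HOXA7) and 45 (HOXA11 with HOXA11-AS) in the sum of the replicates, and the median HOXA anchor had 24. The anchor over HOXA13 on its 3′ side (chr7:27236006-27238095) had the highest mean count per kb of anchor, 9.81. It had 11 and 30 counts, so most of them came from replicate 2.

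HOXB counts were spread over the whole interval. The HOXB9 anchor (chr17:46701389-46706342) had 79 counts in each replicate, and the HOXB4 anchor with MIR10A (chr17:46651320-46660247) had 62 and 85. A pair of anchors without a HOX promoter was also high, in the stretch between HOXB9 and HOXB13 that holds the long noncoding RNA gene LINC02086. The anchor at chr17:46772941-46779677 had 71 and 66 counts and its neighbour at chr17:46780748-46786797 had 53 and 61. The HOXB13 anchor (chr17:46801253-46809499), which also overlaps PRAC2, had 59 and 62. Within HOXB the lowest anchors were one between HOXB9 and HOXB13 with 18 summed counts and that of MIR196A1 with 21.

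HOXC had no dominant anchor. Its highest one (chr12:54358639-54363658, 25 and 40 counts) lay in the body of HOTAIR, the long noncoding RNA gene antisense to the HOXC genes. It was followed by the anchors of MIR196A2 (31 and 26) and HOXC9 (20 and 37). In HOXD the widest anchor, 14468 bp over HOXD3, HOXD4 and MIR10B (chr2:177011335-177025802), had 31 and 37 counts, and the HOXD12 anchor (chr2:176961598-176965515) had 23 and 33. Per kb the HOXD3 and HOXD4 anchor had only 2.35 counts, and the highest value of HOXD was the 7.70 of an anchor between HOXD8 and HOXD4 (chr2:177004663-177007388).

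**Figure D2:**
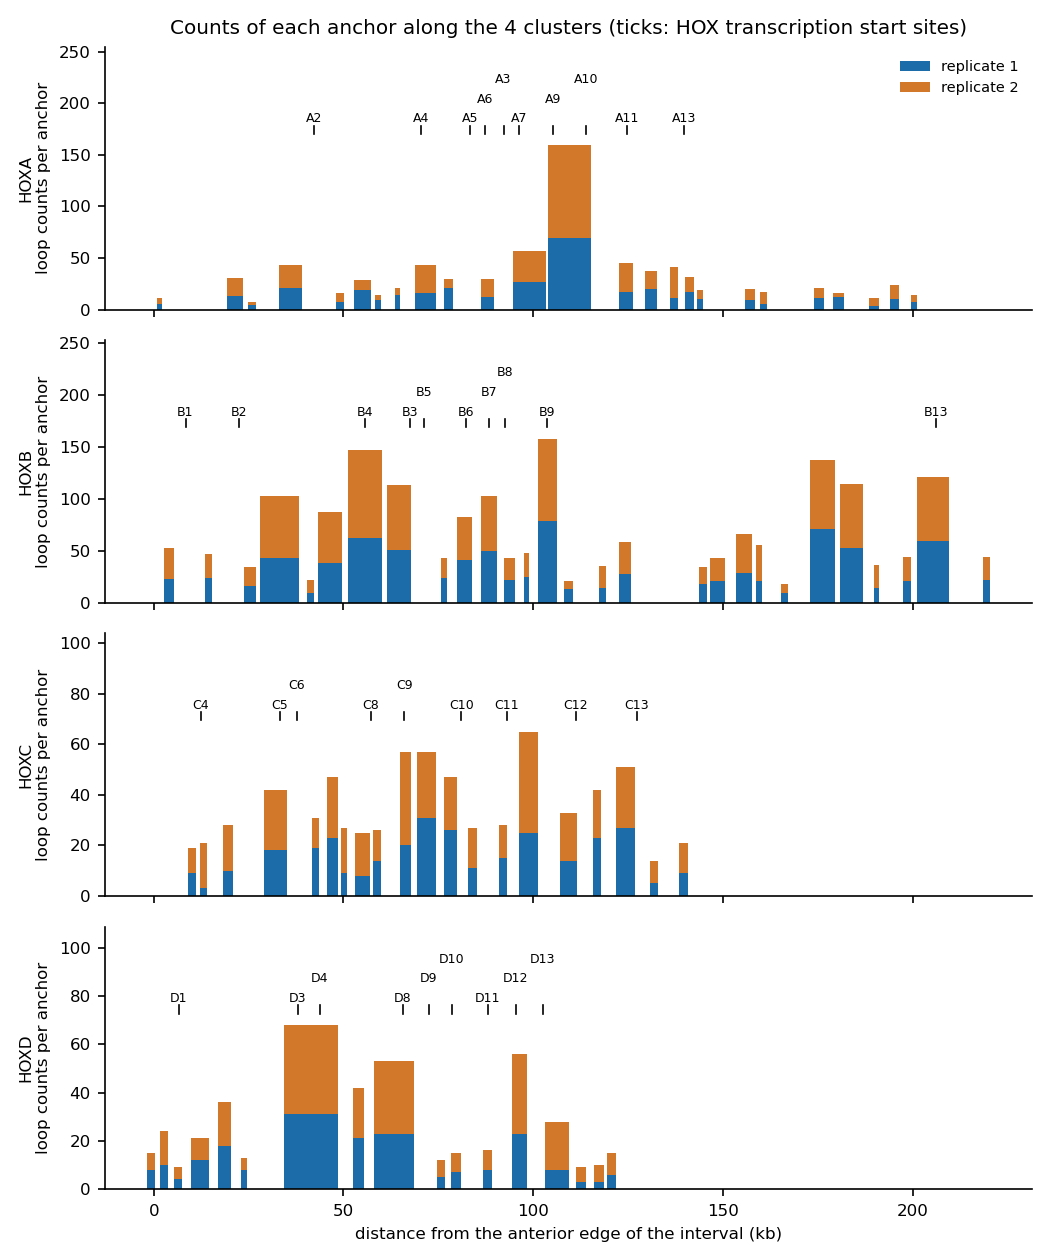
Loop counts of each anchor along the 4 clusters, drawn at the width of the anchor and placed by distance in kb from the anterior edge of the interval, with replicate 2 (orange) stacked on replicate 1 (blue). Ticks and names above mark transcription start sites of the HOX genes named here. The anchor of HOXA9 and HOXA10, with 69 and 90 counts, stands out in HOXA, while HOXB has high anchors around HOXB4, at HOXB9 and between HOXB9 and HOXB13.

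Promoter contacts were then compared gene by gene, with a promoter defined as the start site of the canonical transcript ± 2.5 kb. Of the 39 HOX genes, 34 had an anchor there, and HOXA2, HOXA5, HOXB1, HOXB5 and HOXC6 had none. Neighbouring genes can share an anchor, as HOXD3 and HOXD4 do, and the canonical start of HOXA3 lies beside HOXA7, so these values are not independent. HOXA9, which has a role in blood cell development, and its neighbour HOXA10 had the highest promoter counts of HOXA, 92 and 110 for HOXA9, whose promoter meets 2 anchors, and 69 and 90 for HOXA10. HOXA6 (12 and 18) was the lowest, and HOXA4 had 16 and 27. HOXB9 (79 and 79) and HOXB4 (62 and 85) led HOXB, and HOXB2 (16 and 18) and HOXB6 (41 and 42) were the lowest there. The width of the promoter decided some of these values. At ± 1 kb HOXA9 met the anchor of HOXA10 alone, and its mean of 101 became 79.5, close to the 79 of HOXB9. HOXB8 went from a mean of 72 to 21.5, below HOXC8 (23) and HOXD8 (26.5), and HOXA3, HOXB2, HOXC10 and HOXD9 had no anchor left.

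HOXC promoters lay in a narrow range. HOXC10 had 37 and 33 counts and HOXC9 20 and 37, while HOXC11 had 15 and 13 and HOXC12 14 and 19, so the 2 replicates of HOXC9 spanned more than the difference between the middle genes of this cluster. In HOXD, HOXD3 and HOXD4 shared 31 and 37, and HOXD1 (4 and 5) and HOXD9 (5 and 7) had the lowest counts of all HOX promoters. These are raw counts of anchors that differ in width, and several ranks changed per kb of anchor. The mean per kb was 2.35 for HOXD3 and HOXD4, 3.18 for HOXD9 and 2.12 for HOXD1. It was 6.20 for HOXC10 and 6.64 for HOXC11, and 5.07 for HOXA9 and 8.13 for HOXA13. Within HOXB, HOXB9 stayed highest (15.9) and HOXB2 lowest (5.16). Relative to the count expected from anchor spacing alone, all 9 HOXA and all 8 HOXB promoters with an anchor were above 1 in both replicates, with means from 1.39 to 7.54 and from 1.48 to 6.33. Only 6 of 8 HOXC and 4 of 9 HOXD promoters were, with means from 0.928 to 2.24 and from 0.370 to 3.41.

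**Figure D3:**
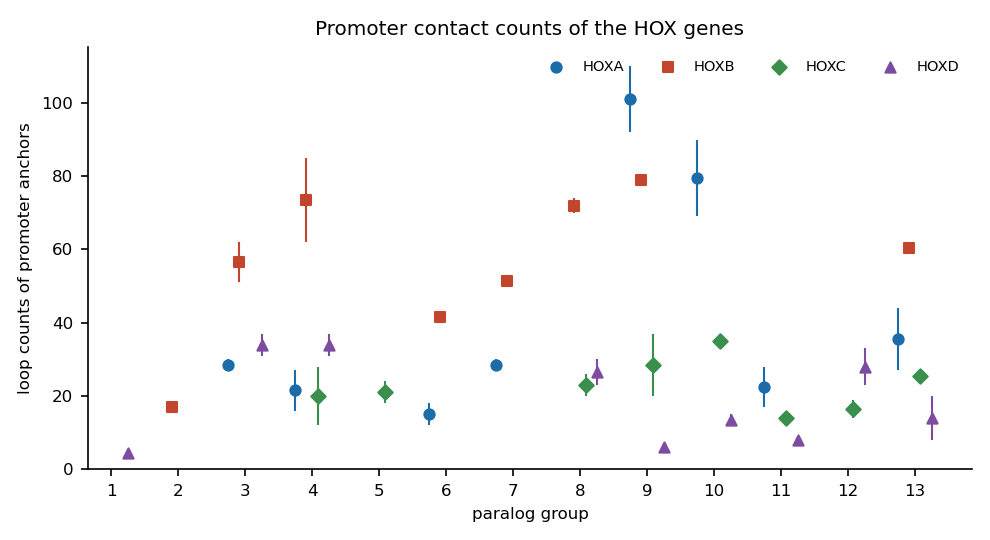
Loop counts of the promoter anchors of the HOX genes by paralog group, with 1 symbol per gene at the mean of the 2 replicates and a line from the lower to the higher replicate. Genes without a promoter anchor and a gene not reported here are not drawn. With promoters of ± 2.5 kb, HOXB genes are above the drawn paralogs except in group 9, where HOXA9 is highest, and HOXD1, at 4 and 5, is the lowest gene.

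A loop with a summed count of at least 5 was present at 22 of the 34 HOX promoters with an anchor, where the background over 16467 protein-coding promoters was 36.8%. It was present at 8 of 9 in HOXA, 8 of 8 in HOXB, 3 of 8 in HOXC and 3 of 9 in HOXD. By genes, HOXA and HOXB were above the background share and HOXC and HOXD close to it. Several HOXA genes shared anchors and so loops. HOXA3, HOXA7 and HOXA9 met a common anchor, and HOXA9 and HOXA10 another. HOXA had 6 such loops, 1.17% of its loops against 1.47% of all, and 4 of them ended on the HOXA9 and HOXA10 anchor. PRAC1 and PRAC2, small genes beside HOXB13 that are known from prostate and colon, shared 2 promoter anchors with 74 and 80 counts, 1 of which is the HOXB13 anchor. EVX1 and EVX2, homeobox genes at the posterior ends of HOXA and HOXD, had 12 and 4 and 11 and 25. Among the long noncoding RNA genes, HOTTIP had 24 and 23, HOTAIR 15 and 13, and HAGLR, which shares the HOXD1 anchor, 4 and 5.

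Genes elsewhere that act on or with HOX proteins were read the same way. Of the PBX, MEIS, PKNOX and CDX genes, whose products bind DNA with HOX proteins or act upstream of them, 9 of 12 had a promoter anchor and 4 of these (44.4%) had a loop with a summed count of at least 5 (MEIS3, PKNOX1, PKNOX2 and CDX2). Among 14 trithorax, polycomb and CTCF or cohesin genes, 12 had an anchor and 5 (41.7%) had such a loop, so both lists were close to the 36.8% of all protein-coding promoters. The highest of them, CBX8, a polycomb gene, had 95 and 105 counts, while EZH2 had 9 and 11. Markers of epithelial cells checked the cell line: 4 of 7 had such a loop, led by KRT18 (65 and 79) and KRT8 (54 and 63), compared with 0 of the 10 with an anchor among markers of blood, muscle, liver, endothelium and glia, at which counts reached at most 20 and 21 (MYOD1). The epithelial list was uneven, since EPCAM (10 and 18), CDH1 (4 and 11) and VIL1 (7 and 8) had no such loop and their summed counts were below those of MYOD1 and of PTPRC (15 and 16), a blood cell marker.

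Contacts were next divided into those within a cluster and those with its 2 flanks. Within-cluster contacts took 23.8% and 25.1% of the counts of HOXA, 27.7% and 29.3% of HOXB, 26.6% and 28.4% of HOXC and 16.5% and 14.02% of HOXD. A count expected from distance and from the balanced depth of each anchor gave larger shares, 38.6% for HOXA, 36.0% for HOXB, 31.8% for HOXC and 26.5% for HOXD (means of both replicates). The observed share was thus below the expected one in every cluster and replicate. Its exact binomial 95% interval lay below the expected share in both replicates for HOXA (19.1% to 29.1% and 20.5% to 30.1%), HOXB (24.4% to 31.1% and 26.1% to 32.6%) and HOXD (11.2% to 22.9% and 9.66% to 19.4%), and held it for HOXC (21.2% to 32.5% and 23.4% to 33.8%).

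As ratios of observed to expected counts, contacts within the cluster stood at 0.705 ± 0.030 in HOXA, 0.838 ± 0.029 in HOXB, 0.893 ± 0.035 in HOXC and 0.630 ± 0.061 in HOXD (SD, n = 2). Windows of the same length had a median ratio close to 1 (0.998 to 0.999), and 1.93% of them were lower than HOXA, 11.5% lower than HOXB, 25.0% lower than HOXC and 1.39% lower than HOXD. The deficit depended on the expectation used. The distances alone gave expected within shares of 27.9%, 28.6%, 27.9% and 22.9%, which the intervals of HOXA, HOXB and HOXC held in both replicates, and only the HOXD share stayed below in both. As a ratio to the count expected from distance alone, contacts within the cluster were above 1 in HOXA (1.27 ± 0.030), HOXB (2.83 ± 0.046) and HOXC (1.47 ± 0.12) and below it in HOXD (0.805 ± 0.036), where the total counts of the clusters had ratios of 1.45, 2.85, 1.49 and 1.22 in the same order.

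In HOXB the deficit against distance and anchor depth lay between the ends of the cluster. To place it, anchors were assigned to the nearest HOX start site and grouped into an anterior part (paralog groups 1 to 4), a central part (5 to 8) and a posterior part (9 to 13). In HOXB, contacts within the anterior part were close to expectation (101 against 93.2 in the summed counts), as were those within the posterior part (188 against 202.5). Contacts between the anterior and posterior parts numbered 34 against 74.2, a ratio of 0.458 (exact Poisson interval 0.317 to 0.640), and those between the central and posterior parts 26 against 63.3 (0.411, 0.268 to 0.602). Against distance alone these pairs of parts were above 1, at 1.79 and 1.21, compared with 4.52 within the anterior part and 2.80 within the posterior part. The central part was in contact with the anterior part close to the expected level (46 against 43.6), with 12 and 34 counts in the 2 replicates.

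HOXD was divided as well. Its anterior part had 37 internal contacts against 32.7 expected, whereas only 3 contacts joined it to the posterior part against 16.3 (0.184, 0.038 to 0.536), 1 in replicate 1 and 2 in replicate 2. The single central anchor, that of HOXD8, had 7 contacts with the anterior part and 1 with the posterior part, against 14.8 and 7.94. Contacts within the posterior part of HOXD were few as well (10 against 20.8). Against distance alone the contacts of the posterior part stayed below 1, at 0.226 with the anterior part, 0.242 with HOXD8 and 0.388 among themselves, while those of HOXD8 with the anterior part were at 1.81. In HOXA the counts between anterior and posterior parts were 22 against 34.1 (0.644, 0.404 to 0.975), but those within the posterior part were also low (64 against 88.4). So were those between the central and posterior parts (27 against 41.6) and between the anterior and central parts (10 against 18.8). Against distance alone these stood at 1.25, 1.26, 2.52 and 0.848, in the same order. In HOXC the anterior and posterior parts shared 5 counts against 7.77, too few to tell from expectation. All other pairs of HOXC parts had intervals that held 1.

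The preference for 1 flank or the other changed along the clusters. Taken whole, the anterior flank received 48.5% and 47.8% of the flank counts of HOXA, 64.3% and 57.5% of HOXB, 50.8% and 53.9% of HOXC and 65.5% and 58.2% of HOXD, where 45.1%, 51.3%, 44.4% and 51.5% were expected on average. These totals hid a difference between the parts. The anterior flank received 66.9 ± 3.9% of the flank counts of the anterior part of HOXA and 78.5 ± 2.2% of those of the central part, but 31.6 ± 3.4% of those of the posterior part (SD, n = 2), with 54.2%, 47.4% and 40.1% expected. For HOXB the shares were 85.8 ± 0.24%, 86.5 ± 1.1% and 41.4 ± 5.2%, with 63.2%, 55.4% and 43.2% expected.

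HOXD gave 84.4 ± 4.7% for the anterior part, 91.1 ± 0.84% for the HOXD8 anchor and 28.1 ± 3.1% for the posterior part, with 58.1%, 50.7% and 42.5% expected. HOXC gave 66.7 ± 12%, 70.3 ± 1.7% and 42.1 ± 0.26%, with 58.1%, 50.2% and 39.7% expected. In all 4 clusters and both replicates the anterior and central parts had larger anterior shares than the posterior part, and they were above expectation except for the anterior part of HOXC in replicate 1 (58.3% against 59.7%). In HOXA and HOXD the posterior part was below expectation in both replicates, in HOXC it was slightly above, and in HOXB it was above in replicate 1 (45.0% against 42.7%) and below in replicate 2 (37.7% against 43.6%).

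Single anchors showed where the switch lay in HOXA, HOXB and HOXD. All 42 anchors of the anterior and central parts had a larger share on the anterior flank than expected, in the summed counts, compared with 14 of 48 anchors of the posterior parts. Counts per anchor were small, and the interval of the share excluded the expected value for 15 of the 42, all above it, and for 12 of the 48, 5 above and 7 below. In HOXA the HOXA7 anchor sent 78.8% of 33 flank counts to the anterior flank, the anchor of HOXA9 and HOXA10 55.1% of 98, the HOXA11 anchor 33.3% of 27, and the anchor with the start of HOTTIP, next to HOXA13, 5.00% of 20. Here the change ran across the anchor with the highest count of the cluster.

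In HOXB the switch lay behind HOXB9, not between the parts as drawn. The HOXB9 anchor was still tied to the anterior flank with 73.6% of 106 counts (64.1% to 81.7%), the anchor of the LINC02086 start stood at 48.5% of 33, and the pair of distal anchors beyond it at 24.6% of 69 and 25.0% of 52. The HOXB13 anchor had 22.0% of 82 (13.6% to 32.5%). In HOXD it fell between HOXD8 and HOXD12. The HOXD8 anchor had 91.1% of 45 counts (78.8% to 97.5%) and the HOXD12 anchor 20.4% of 49 (10.2% to 34.3%), and between them the HOXD10 anchors had 50.0% of 10 and 69.2% of 13 and the HOXD11 anchor 36.4% of 11. HOXC was less clear. Shares were 75.0% of 28 at HOXC5, 57.6% of 33 at HOXC9, 35.0% of 40 at the HOTAIR anchor and 30.0% of 30 at HOXC13. The HOXC11 promoter had 78.6% of 14. Of the 11 posterior anchors of HOXC, 6 were above and 5 below the expected share. The interval excluded the expected share for only 2 of the 20 HOXC anchors.

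**Figure D4:**
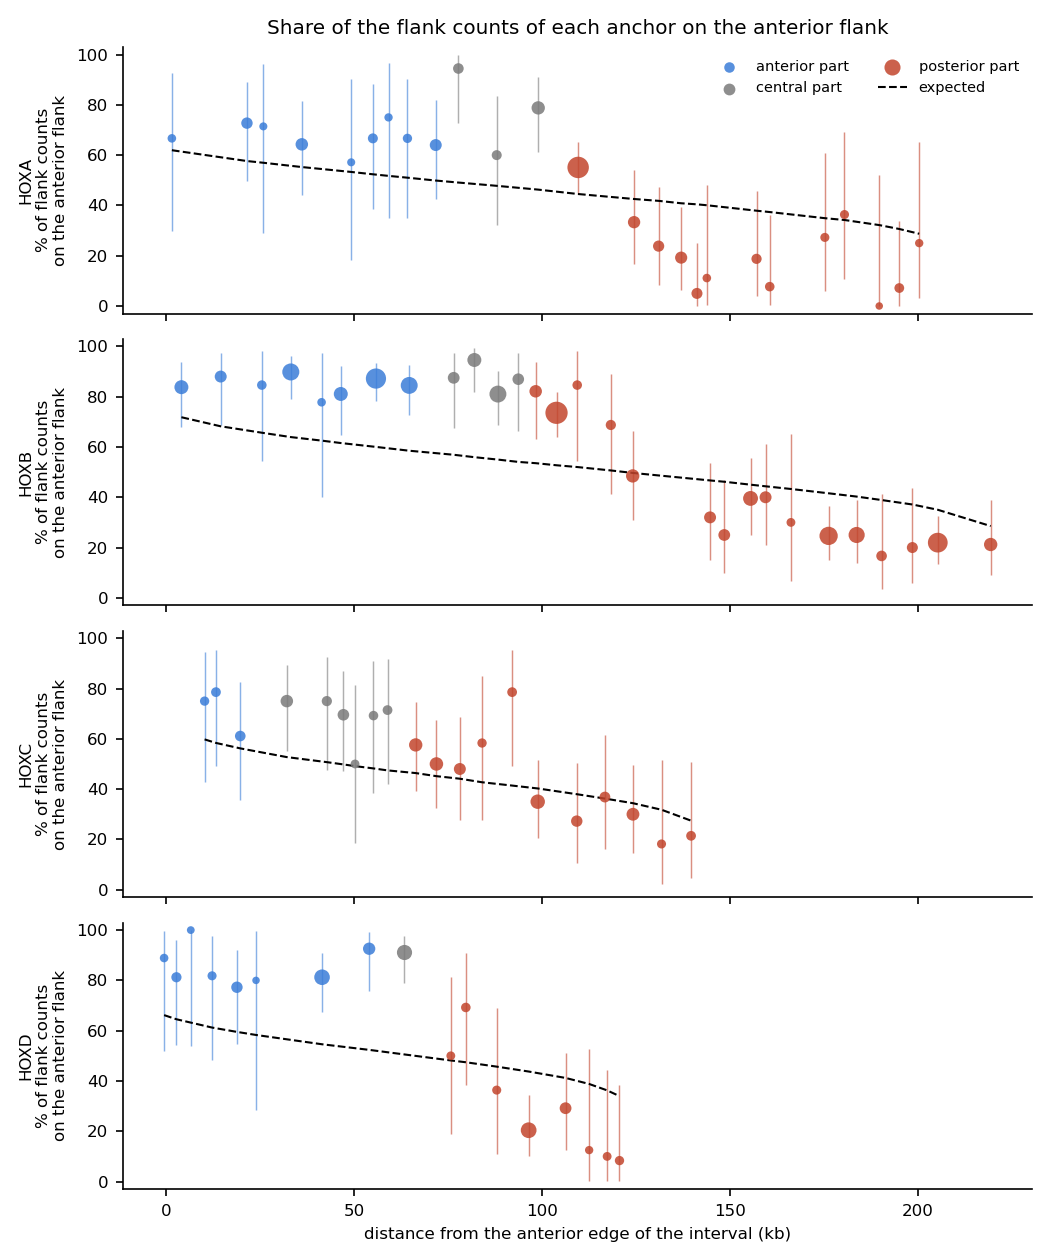
Share of the flank counts of each anchor that fell on the anterior flank, by distance in kb from the anterior edge, for the summed replicates, with exact binomial 95% intervals and symbol area growing with the number of flank counts. Colours give the anterior (blue), central (grey) and posterior (red) parts, and the dashed line the share expected from distance and anchor depth. All blue and grey points lie above the line and 34 of 48 red points below it.

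To describe how usual such a change is, the same difference was computed for windows that tile the autosomes, with the anchors of a window divided in the middle, as the share on the low side among the lower anchors minus that among the upper anchors, less the expected difference. It was 34.3 percentage points for HOXA, 33.9 for HOXB, 26.9 for HOXD and 15.4 for HOXC. The median of the windows was between -0.997 and -0.31 points, and 0.317% of 9789 windows were higher than HOXA, 0.255% of 9025 higher than HOXB, 1.10% of 14044 higher than HOXD and 8.69% of 12885 higher than HOXC. These shares describe the genome and were not used as a test.

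HOXC had the shortest contacts of the 4 clusters, with a median loop length of 173 and 180 kb, compared with 286 and 282 kb in HOXB. Over all loops of the genome the medians were lower than in any of the clusters (143 and 149 kb). In HOXA and HOXD the medians were 454 and 403 kb and 430 and 413 kb. HOXB counts were enriched on the anterior flank between 100 and 500 kb, a stretch that holds SKAP1 and SNX11, with 405 summed counts against 191.7 expected (2.11, exact Poisson interval 1.91 to 2.33), and they were below the balanced expectation between 1000 and 2000 kb (20 against 50.7, a ratio of 0.394) but near that from distance alone (0.910, with 0.781 and 1.02 in the replicates). Between 100 and 500 kb of its posterior flank the ratio was 1.06 (0.917 to 1.23).

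HOXD had 107 counts against 55.2 between 100 and 500 kb of its anterior flank (1.94, 1.59 to 2.34) and 39 against 22.4 between 500 and 1000 kb (1.74, 1.24 to 2.38). On its posterior flank the nearest 100 kb, which hold the start of LNPK, had 14 against 33.5 (0.418, 0.229 to 0.702), while the stretch from 500 to 1000 kb had 48 against 21.9 (2.19, 1.61 to 2.90), 22 in replicate 1 and 26 in replicate 2. HOXA was similar on the posterior side, with 92 against 42.4 at 500 to 1000 kb (2.17, 1.75 to 2.66). On its anterior flank it had 132 against 78.0 at 100 to 500 kb (1.69, 1.42 to 2.01).

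HOXC had few contacts beyond 500 kb. Within 100 to 500 kb it had 136 against 76.4 on the anterior flank and 110 against 71.3 on the posterior flank. Between 500 and 1000 kb it had only 6 against 27.9 (0.215, 0.079 to 0.469) and 12 against 41.2 (0.291, 0.151 to 0.509), low in both replicates. Of the 4 clusters, HOXC had the most protein-coding genes in its flanks, 51 on the anterior and 59 on the posterior side, and HOXA and HOXD the fewest (8 and 7, 9 and 11). The part of gene density in the reach of the contacts was not tested.

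**Figure D5:**
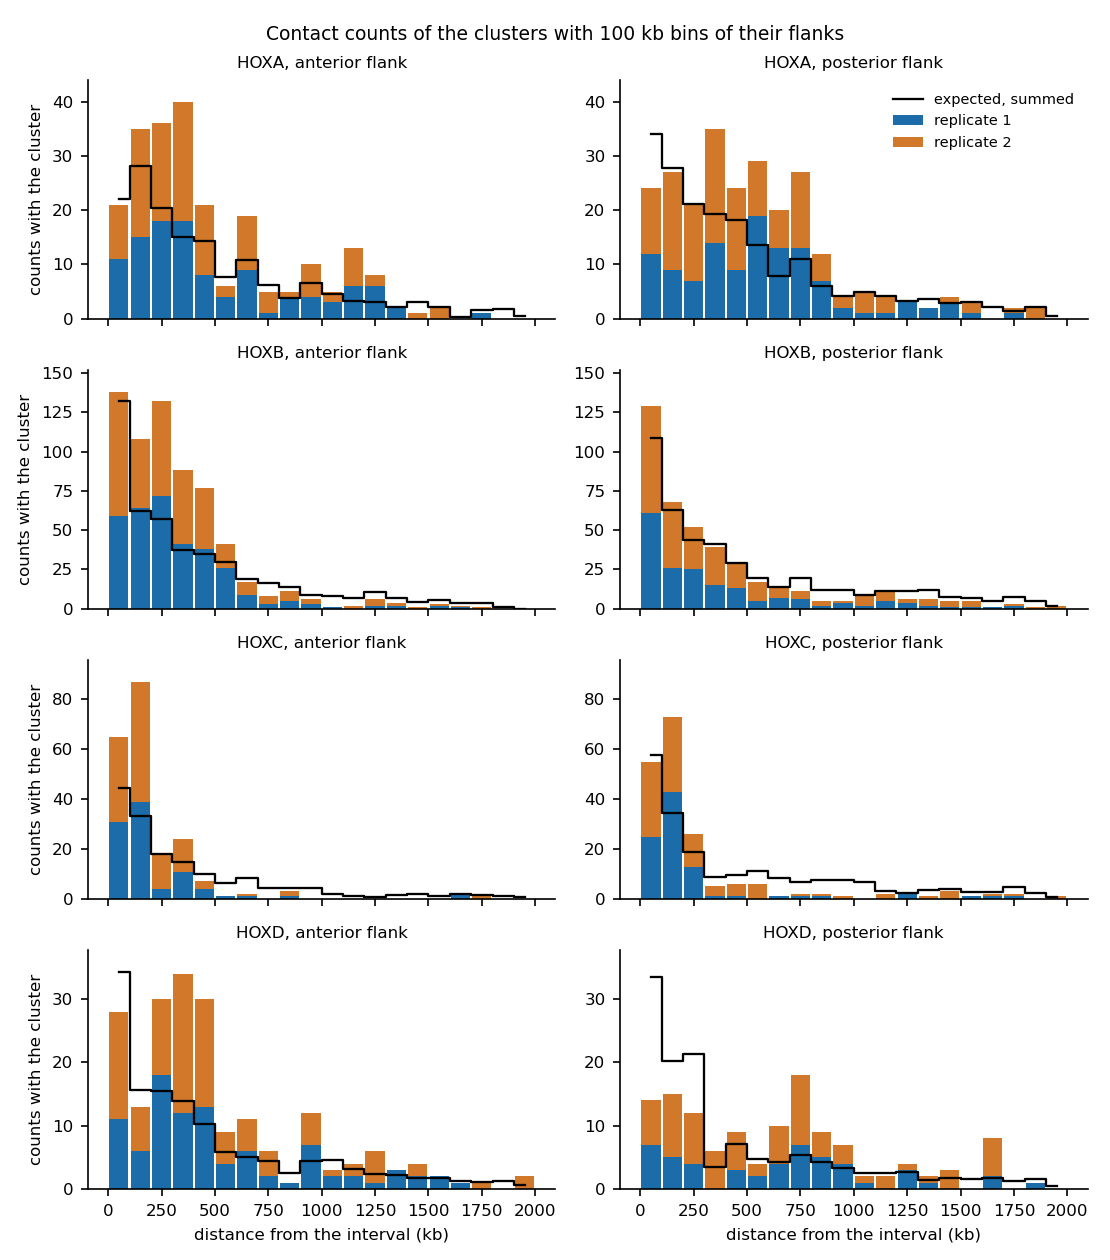
Counts of each cluster with 100 kb bins of its anterior and posterior flank by distance from the interval in kb, replicate 2 (orange) stacked on replicate 1 (blue), and the summed balanced expectation (black line). HOXB is in total above the line between 100 and 500 kb of its anterior flank, HOXC is in total below it beyond 500 kb on both sides, and HOXA and HOXD are in total above it between 500 and 1000 kb of the posterior flank.

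At gene promoters of the flanks the counts were low. The promoters with most counts were SNX11 (2 and 10), COPZ2 (4 and 5) and CBX1 (4 and 2), which encode a sorting nexin, a coat protein subunit and a heterochromatin protein, on the anterior side of HOXB. On its posterior side they were ATP5MC1 (2 and 8), UBE2Z (5 and 5) and SNF8 (4 and 5), at 0.804 to 1.02 times the expected count. HOXC met SMUG1, a DNA repair glycosylase gene (5 and 6 counts against 3.10 expected), ZNF385A (6 and 3 against 2.71) and the shared promoter anchor of CBX5 and HNRNPA1 (2 and 4) on the anterior side, and CALCOCO1 (5 and 3) on the posterior side, where MAP3K12 and TARBP2 shared 0 and 3. For HOXA they were SKAP2 (3 and 4), NFE2L3 (1 and 3) and the shared anchor of HNRNPA2B1 and CBX3 (3 and 0) on the anterior side and TAX1BP1 (3 and 3) and HIBADH (0 and 1) on the posterior side.

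HOXD had no flank promoter with more than 3 summed counts. MTX2, on the anterior side, had 2 and 1, TTC30A and AGPS 1 and 1 each, and on the posterior side ATF2 and LNPK had 1 and 1 each. No single flank loop of HOXD had more than 3 summed counts either. Those named next reached stretches without protein-coding promoters, at counts no higher than that of MTX2. The HOXD8 anchor contacted chr2:177675434-177682850 in LINC01117 (2 and 1 counts) and chr2:177345201-177349416 (1 and 2), and the HOXD12 anchor contacted chr2:176823709-176827145 in LNPK (0 and 3).

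The strongest single loop of the 4 clusters joined the pair of distal HOXB anchors between HOXB9 and HOXB13. It had 17 and 14 counts over 7.46 kb. For single loops the balanced expectation leaves the count of the pair out of its own anchors, unlike that for clusters, parts and flanks. This loop was at 1.79 times it (exact Poisson interval 1.22 to 2.54), or 1.44 times with the pair kept. It was at 17.1 times the count expected from distance alone. Next came the loop between HOXB3 and HOXB4 (6 and 10 counts), that between the HOXA7 anchor and the HOXA9 and HOXA10 anchor (4 and 10) and that between HOXB6 and HOXB7 (5 and 8). In HOXC the top loop joined HOXC13 and an anchor between it and HOXC12 (7 and 1). In HOXD 3 loops shared the highest summed count of 5, from the anchor of HOXD3 and HOXD4 to that of HAGLROS (4 and 1) and to the anchor at chr2:177004663-177007388 (4 and 1), and from the latter to the HOXD8 anchor (1 and 4). The HOXA7 to HOXA9 loop was at 0.622 times its balanced expectation (0.340 to 1.04), or 0.715 times with the pair kept, and at 9.97 times the distance expectation.

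On the flanks, the HOXB9 anchor contacted chr17:46244674-46251840 in SKAP1 with 1 and 4 counts against 0.470 expected, and the HOXB4 anchor chr17:46336309-46340907 in SKAP1 with 1 and 4 against 0.547. HOXB9 also contacted chr17:47139418-47143963 on the posterior flank (1 and 3 against 0.419). The HOTTIP anchor contacted the TAX1BP1 promoter with 1 and 2 counts against 0.114. HOXC9 contacted CISTR, a long noncoding RNA gene, with 3 and 0.

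No single loop passed the test against distance and anchor depth. Every one of 51094602 anchor pairs was given a one-sided Poisson p, adjusted after Benjamini and Hochberg. At an adjusted p under 0.01, 0 HOX pairs were called in replicate 1, replicate 2 or the summed counts, where the genome as a whole had 2, 6 and 14 calls (backgrounds of 3.91e-06%, 1.17e-05% and 2.74e-05%). The number stayed at 0 at an adjusted p under 0.05 (1.17e-05%, 2.94e-05% and 6.07e-05%). It was also 0 when a pair stayed in the depth of its own anchors, with backgrounds of 1.96e-06%, 1.96e-06% and 1.76e-05% under 0.01 and 1.96e-06%, 1.96e-06% and 1.96e-05% under 0.05.

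At an unadjusted p under 0.05 there were 173 and 163 pairs in HOXA, 197 and 210 in HOXB, 82 and 78 in HOXC and 101 and 117 in HOXD. These were 0.854% to 1.56% of the pairs tested in each cluster, against backgrounds of 0.963% and 1.04%. In the summed counts they numbered 210, 247, 99 and 157, which is 1.08% to 1.96% against 1.37%. The lowest adjusted p of the summed counts was 0.408, for the contact of an anchor at HOXC8 with chr12:54597279-54600762 on the anterior flank (2 and 2 counts, 0.0763 expected).

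Against distance alone, in the same test, HOXB had 2 and 7 calls in the replicates and HOXA 0 and 2, whereas HOXC and HOXD had 0 in both, with backgrounds of 0.00258% and 0.00357% of pairs. In the summed counts HOXB had 14 calls, 0.104% of its pairs, and HOXA 2, 0.0172%, with a background of 0.01%. Under an adjusted p of 0.05 the calls were 2 and 12 in HOXB, 0 and 3 in HOXA, 0 and 1 in HOXD and 0 in HOXC (backgrounds of 0.00373% and 0.0055%), and 18, 4, 2 and 1 in the summed counts (0.0157%). Of the 14 HOXB calls in the summed counts, 7 were within the cluster and 7 joined it to a flank. Both HOXA calls under 0.01 ended on the HOXA9 and HOXA10 anchor, from the HOXA7 and the HOXA4 anchors.

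The sequence of the intervals was richer in CpG than the autosomes, with 28.8 CpG per kb in HOXA, 23.7 in HOXB, 27.4 in HOXC and 34.1 in HOXD against 9.97, and the G and C content was 49.3% to 51.8% against 41.0%. GATC sites, which set how finely contacts can be placed, were at 2.36, 2.75, 2.20 and 2.15 per kb against 2.49. The CTCF motif occurred 9 times in HOXA (4.50 per 100 kb), 12 in HOXB (5.45), 8 in HOXC (5.71) and 5 in HOXD (4.17), compared with 2.71 per 100 kb of autosomes. Matches lay among others in the anchors of HOXA7, of HOXA9 and HOXA10, of the HOTTIP start and of HOXB4. Others were in those of MIR196A2, HOXC5, HOXD11, HOXD12 and HAGLROS and in some anchors without a HOX promoter. The HOXB9 and HOXB13 anchors held none. The motif rates were not corrected for G and C content, which was higher in the clusters than in the autosomes. The part of this content in the difference in motif rates was not tested. A match names the letters only, and CTCF binding was not measured here.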

How the data were processed

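H3K27ac HiChIP was made in 2 replicates of HCT116 cells with MboI digestion. The authors deposited, for each replicate, raw counts of read pairs between 2 anchors on the same chromosome, from valid pairs made with HiC-Pro (hg19, per the labels' processing notes) and loops from hichipper, as the methods state. Versions and anchor settings are not given in the sources used here. The counts are not normalized, and both tables use 1 anchor set whose starts lie on GATC for nearly all of 250222 anchors (100.0%), read as positions counted from 1.

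Here, loops up to 2 Mb were kept, and cluster members were found by overlap of the anchor with the interval. The members, gene lists, parts and motifs were chosen with earlier results of these data known. The expected count of a pair came from 60 distance classes and anchor weights balanced in 20 rounds, for the test with the count of the pair left out of its own anchors (offset 0.5), or from distance alone. Each pair across the whole genome was given a one-sided Poisson p, which was adjusted after Benjamini and Hochberg and called at 0.01. On simulated data the procedure left most of the raised pairs uncalled. The absence of a call therefore does not show that a pair was not raised. Shares have Clopper-Pearson and counts exact Poisson 95% intervals. Windows of the same length tiled the autosomes. Genes are canonical transcripts of GENCODE release 44 on GRCh37, promoters the start ± 2.5 kb; RefSeq promoters were found for 20 of the 39 HOX genes, and were placed in hg19 by exact match. Named are the 2 highest and 2 lowest HOX promoters of each cluster (ties included), the other listed genes inside the intervals, except for genes not reported here, the strongest loops and the 3 flank genes with most counts. Counts summed to 1885481 and 2131466. The alternatives were the minimum count, each loop counted once, the distance limit, the interval, the anchor rule, the expectation, the p threshold, the promoter width and each replicate left out. Contacts over 2 Mb were not used, since the highest pair had a summed count of 1 in HOXA, HOXC and HOXD and 2 in HOXB. The analysis used matplotlib 3.10.9, numba 0.67.0, scipy 1.17.1, pandas 2.3.3, numpy 2.4.6 and Python 3.11.15.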

Additional observations from a re-analysis of the deposited data

How the results depend on the processing

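No paired analysis was possible because all samples belong to 1 group. With each replicate left out, counts per kb ranged from 1.49 to 1.68 (HOXA), 3.20 to 3.55 (HOXB), 1.80 to 2.16 (HOXC) and 1.42 to 1.78 (HOXD). HOXB had the most counts per kb under every alternative run. With a minimum count of 2, counts per kb were 0.330, 1.23, 0.571 and 0.258 for HOXA, HOXB, HOXC and HOXD, within shares 75.7%, 56.2%, 51.9% and 38.0%, and anterior shares of flank counts 34.9%, 66.9%, 60.2% and 75.6%. With each loop counted once, counts per kb were 1.38, 2.58 and 1.65 for HOXA, HOXB and HOXC, and within shares 16.3%, 18.2%, 21.7% and 12.6%. Up to 1 Mb, HOXA had 1.42 counts per kb and an anterior share of 46.5%, and within shares were 27.3% (HOXA), 30.0% (HOXB) and 17.9% (HOXD). Over the interval of the HOX genes alone, counts per kb were 2.18 (HOXA) and 2.26 (HOXC), within shares 21.2% (HOXA) and 13.2% (HOXD), and anterior shares 53.4% (HOXA) and 69.3% (HOXD). From distance alone, the expected within shares were 27.9%, 28.6%, 27.9% and 22.9%, and the expected anterior shares of HOXA, HOXB and HOXC 46.7%, 48.6% and 47.9%. Loops above expectation from distance alone numbered 2 in HOXA replicate 2 and 2 and 7 in HOXB, and against distance and anchor depth the threshold of 0.05, the pair kept and the summed counts made no call in a HOX cluster.

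The alternatives for the parts of the clusters were chosen after seeing the data. With each loop counted once, the anterior shares were 83.0% and 85.1% for the anterior and central parts of HOXB, 67.4% and 42.5% for the central and posterior parts of HOXC and 90% for HOXD8. Up to 1 Mb they were 90.9% and 90.2% for the anterior and central parts of HOXB, 43.2% for posterior HOXC, 92.5% for HOXD8 and 24.8% for posterior HOXD. Without the nearest 100 kb of the flanks they were 83.3% and 47.1% for anterior and posterior HOXB, 42.6% for posterior HOXC and 90.1% for HOXD8. In every cluster and under each of these alternatives the anterior and central parts kept a larger anterior share than the posterior part. With promoters of ± 1 kb, 30 of 34 HOX genes kept an anchor and 5 had another count (means of 79.5 for HOXA9, 16 for HOXA13, 21.5 for HOXB8, 10.5 for HOXC4 and 7.5 for HOXD10). Of the loops of a cluster, 82.5% to 92.9% had a count of 1, compared with 88.7% and 87.9% of all loops, and the part of depth in the absence of calls was not tested.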
